A study of Mus musculus with 11 samples.

Results

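The mitochondrial ribosomal proteins were read from array signals of 11 mouse lymphomas, as every gene whose probe set carries a single symbol beginning with Mrpl or Mrps and a digit. This gave 74 of the 12394 genes with a single-symbol probe set. They were covered by 127 probe sets, and for each gene the probe set with the highest mean over the 11 arrays stood for it. All 74 of these passed the filter on dim probe sets, which kept 13576 of 22626. Another 3 probe sets that carry an Mrpl or Mrps symbol beside a second gene were left out, and with them Mrpl30 and Mrpl53.

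The tumours came from E-mu-BRD2 transgenic mice on the FVB background, in which the immunoglobulin heavy chain enhancer E-mu drives BRD2 in B cells. BRD2 is a double-bromodomain protein that binds acetylated chromatin. All 11 were labelled oligoclonal for immunoglobulin, and each was hybridised to 1 array. The labels place 6 tumours in a marginal and 5 in a transitional severity class. Among the marginal tumours the recorded spleen enlargement was marginal in sample 1, mild in samples 2 to 4 and moderate in samples 5 and 6. Their clinical signs were a neck tumor in sample 1, failure to nest in samples 2 and 3, a leg tumor in sample 4, a haunch tumor in sample 5 and paralysis in sample 6. All 5 transitional samples are labelled with failure to nest, with severe enlargement in samples 1 and 2, mild in sample 3 and moderately severe in samples 4 and 5. Age, sex and the tissue taken are not given in the labels, and the resting and activated B cells and the remaining class named in the design were not analysed here. Marginal and transitional thus name a class, and marginal also names a spleen grade.

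Mitochondrial ribosomes translate the few messages of mitochondrial DNA, which encode core membrane subunits of the respiratory chain and ATP synthase. Their RNAs are encoded in mitochondrial DNA, but every one of their proteins is encoded in the nucleus, made in the cytosol and imported. A small subunit decodes the message, a large subunit forms the peptide bond, and each contains proteins with a bacterial counterpart and proteins added in mitochondria. Of the 74 genes, 49 encode large subunit proteins and 24 small subunit proteins. Mrps30 and Mrps18a are counted in the large subunit, where structures place their proteins. Mrps36 carries the name but is not a ribosome subunit in structures, and it was kept as the remaining member.

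The promoters of 5 genes are shown: those of Mrpl18, Mrpl57, Mrps14 and Mrpl35, the members with the smallest p between the classes, and that of Mrpl33, the member with the widest range. Each stretch runs from 250 bases before to 30 bases after the RefSeq start (GRCm38.p6), written 5′ to 3′ on the gene's strand. Capitals mark the core of ETS-family sites, CCGGAAG, the motif bound by GABP, a regulator of nuclear genes for mitochondrial proteins. The stretches lie at chr17:12916062-12916341 on the minus strand for Mrpl18, chr14:57825989-57826268 on the plus strand for Mrpl57, chr1:160194965-160195244 on the plus strand for Mrps14, chr6:71823755-71824034 on the minus strand for Mrpl35 and chr5:31613701-31613980 on the plus strand for Mrpl33.
Mrpl18: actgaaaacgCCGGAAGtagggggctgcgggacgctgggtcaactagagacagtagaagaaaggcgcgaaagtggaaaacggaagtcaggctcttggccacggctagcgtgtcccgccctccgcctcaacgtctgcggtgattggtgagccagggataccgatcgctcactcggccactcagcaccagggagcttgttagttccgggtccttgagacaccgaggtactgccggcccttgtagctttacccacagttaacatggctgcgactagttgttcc
Mrpl57: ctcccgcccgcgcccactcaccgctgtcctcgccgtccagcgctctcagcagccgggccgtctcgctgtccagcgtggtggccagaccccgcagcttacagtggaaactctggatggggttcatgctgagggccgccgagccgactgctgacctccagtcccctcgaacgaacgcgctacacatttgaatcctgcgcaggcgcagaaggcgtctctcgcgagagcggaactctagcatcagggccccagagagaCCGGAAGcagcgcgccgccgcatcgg
Mrps14: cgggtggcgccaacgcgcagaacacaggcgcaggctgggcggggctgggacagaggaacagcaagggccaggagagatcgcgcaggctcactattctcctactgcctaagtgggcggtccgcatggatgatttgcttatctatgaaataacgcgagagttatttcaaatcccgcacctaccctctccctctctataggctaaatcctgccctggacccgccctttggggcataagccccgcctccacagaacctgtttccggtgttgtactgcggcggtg
Mrpl35: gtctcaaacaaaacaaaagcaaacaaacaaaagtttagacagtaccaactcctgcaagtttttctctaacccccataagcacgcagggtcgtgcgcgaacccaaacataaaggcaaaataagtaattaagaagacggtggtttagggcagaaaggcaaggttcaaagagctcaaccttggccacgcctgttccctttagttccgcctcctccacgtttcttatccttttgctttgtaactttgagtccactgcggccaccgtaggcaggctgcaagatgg
Mrpl33: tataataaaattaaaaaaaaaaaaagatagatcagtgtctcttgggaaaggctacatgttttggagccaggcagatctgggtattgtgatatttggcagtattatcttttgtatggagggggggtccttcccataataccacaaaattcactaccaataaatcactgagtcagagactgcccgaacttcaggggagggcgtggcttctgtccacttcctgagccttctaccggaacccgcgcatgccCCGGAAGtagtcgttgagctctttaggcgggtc
The core begins 240 bases before the start in Mrpl18, 3 bases before it in Mrpl33 and 4 bases after the first transcribed base in Mrpl57. The letters of the core, on either strand, are not in the stretches of Mrps14 and Mrpl35.

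A RefSeq window from 250 bases before to 50 after the start was found for 65 of the 74 genes, as 71 windows. The ETS core CCGGAAG, read on both strands, was in the windows of 24 genes and in 33.8% of the members' windows, against 11.6% of 21262 windows of protein-coding genes and 8.86% of all 32851 windows. The palindromic motif of NRF1, another such regulator, was in 4.23% of member windows (1.33% of protein-coding windows), and the motif of YY1 was in 5.63% (0.889%). The E-box CACGTG was in 9.86% against 7.84%. The CCAAT box was in 39.4% against 38.2%, and the TATA box TATAAA was in 7.04% against 12.6%. All were read on both strands, none of the 6 motifs contains another, and a match is a description of the letters only. The median difference between the classes was 0.16 on the log2 scale for the 24 genes with the ETS core and 0.13 for the members whose windows lack it.

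Signals are MAS5 intensities, used as log2(signal + 16), and every fold or difference below is on that scale. The 2% trimmed mean of the deposited signals was 500.2 on each of the 11 arrays, while median signals lay between 99.7 (transitional 5) and 151.9 (transitional 2). Transitional 4 and 5 stood apart from the other 9 arrays on cell markers. The summed signal of B cell markers was 9814 and 6748 on them, against 24453 to 86619 over the marginal arrays. That of erythroid markers was 88674 and 73155, against 20841 to 61841, and that of mitosis markers 58569 and 47278, against 9252 to 33439. Of 9 tested B cell markers 8 were lower on both than on any other array. Cd79a, a subunit of the B cell receptor, read 2005 and 910.0 there against 4149 or more on the other 9, and the transcription factor Pax5 read 4.2 and 12.2 against 58.7 or more. In these bulk samples, fewer cells of a type and less RNA per cell cannot be told apart.

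The level of the 74 genes varied between single arrays within each class. Each gene's log2 signal was taken relative to its own mean over the 11 arrays, and the median of these deviations over the 74 genes describes an array. The median was -0.29 on marginal 1, -0.22 on marginal 2, -0.011 on marginal 3, -0.044 on marginal 4, -0.026 on marginal 5 and 0.20 on marginal 6. It was -0.099 on transitional 1, -0.027 on transitional 2, 0.15 on transitional 3, -0.037 on transitional 4 and 0.38 on transitional 5. By this median transitional 5, marginal 6 and transitional 3 were the high arrays, marginal 1 and 2 the low ones, and the 2 classes overlapped. Over all tested probe sets the same median ran only from -0.149 (transitional 4 and 5) to 0.072 (marginal 4). Relative to the all-probe median of the same array, the members stood at 0.112 on transitional 4, near transitional 3 (0.118) and marginal 6 (0.16). Transitional 5 stood at 0.524 on that measure.

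**Figure D1:**
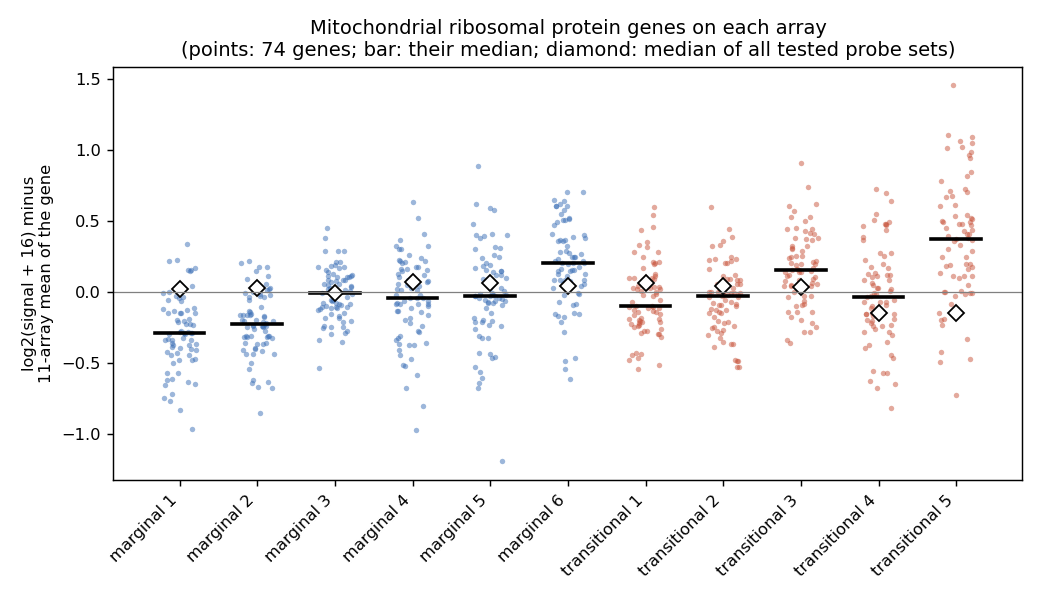
Deviation of each of the 74 genes (points) from its own mean over the 11 arrays, in log2(signal + 16), on each array, with marginal arrays in blue and transitional arrays in red. The bar is the median of the 74 genes and the diamond the median of all 13576 tested probe sets. On transitional 5 the bar stands at 0.38 while the diamond is at -0.149, and on marginal 1 the bar is at -0.29 with the diamond at 0.022.

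Transitional 5 held the highest signal of the 11 arrays for 34 of the 74 genes (45.9%), against 11.1% of all tested probe sets. Marginal 1 held the lowest for 22 genes (29.7% against 9.47%) and marginal 2 for 14 (18.9% against 4.35%). Neither marginal 1 nor marginal 2 nor marginal 3 was highest for any member. On transitional 5, 60 genes were above their own mean, on marginal 6 57 and on transitional 3 55, while on marginal 1 only 10 were and on marginal 2 13.

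Transitional 4 and 5 share a spleen grade and the low B cell and high erythroid and mitosis marker sums, but not the level of these genes. They also differ in other markers: the granulocyte sum was 169113 on transitional 4 and 90162 on transitional 5, and the T cell sum 1450 and 165. Both T cell sums were below that of every other array (2117 or more). The signal was higher on transitional 5 than on transitional 4 for 67 of 74 genes (90.5%, against 45.9% of all tested probe sets), by a median of 0.38 on the log2 scale, or 1.3-fold. This held for 45 of 49 large subunit and 21 of 24 small subunit genes. Both arrays together were the highest 2 of the 11 for 13 genes (17.6%, against 12.6% of all tested probe sets), among them Mrpl14, Mrpl18, Mrpl20, Mrpl57, Mrps18c and Mrps28. They were the lowest 2 for Mrpl44 and Mrps35 only (2.7%, against 20.3%). Between marginal 6 and marginal 1, 62 genes were higher on marginal 6 (83.8% against 50.7%), by a median of 0.49. On that pair all 45 tested cytosolic ribosomal protein genes were also higher (median 0.497). So were 18 of 19 mitoribosome assembly genes and 10 of 11 of mitochondrial DNA maintenance and transcription. The share was lower for import (15 of 21), nuclear respiratory chain and ATP synthase (48 of 76) and translation factor genes (5 of 9). On transitional 5 against 4, 19 of 21 import genes were higher, and 23 of 45 cytosolic ribosomal protein genes. These pairs of arrays were picked after their values were seen, and no test was made of them.

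Markers of other cells moved with some of these arrays. The summed granulocyte marker signal was 217147 on marginal 1, the highest of the 11 arrays, and 154335 on marginal 3, where the members' median deviation was -0.011. It was 11187 on marginal 6 and 90162 on transitional 5, the arrays with high members, 9045 on transitional 1, the lowest of the 11 (members -0.099), and 169113 on transitional 4 (members -0.037). The erythroid sum was 88674 on transitional 4 and 73155 on transitional 5, whose members differed. The part of these cells in the members' levels was not tested.

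**Figure D2:**
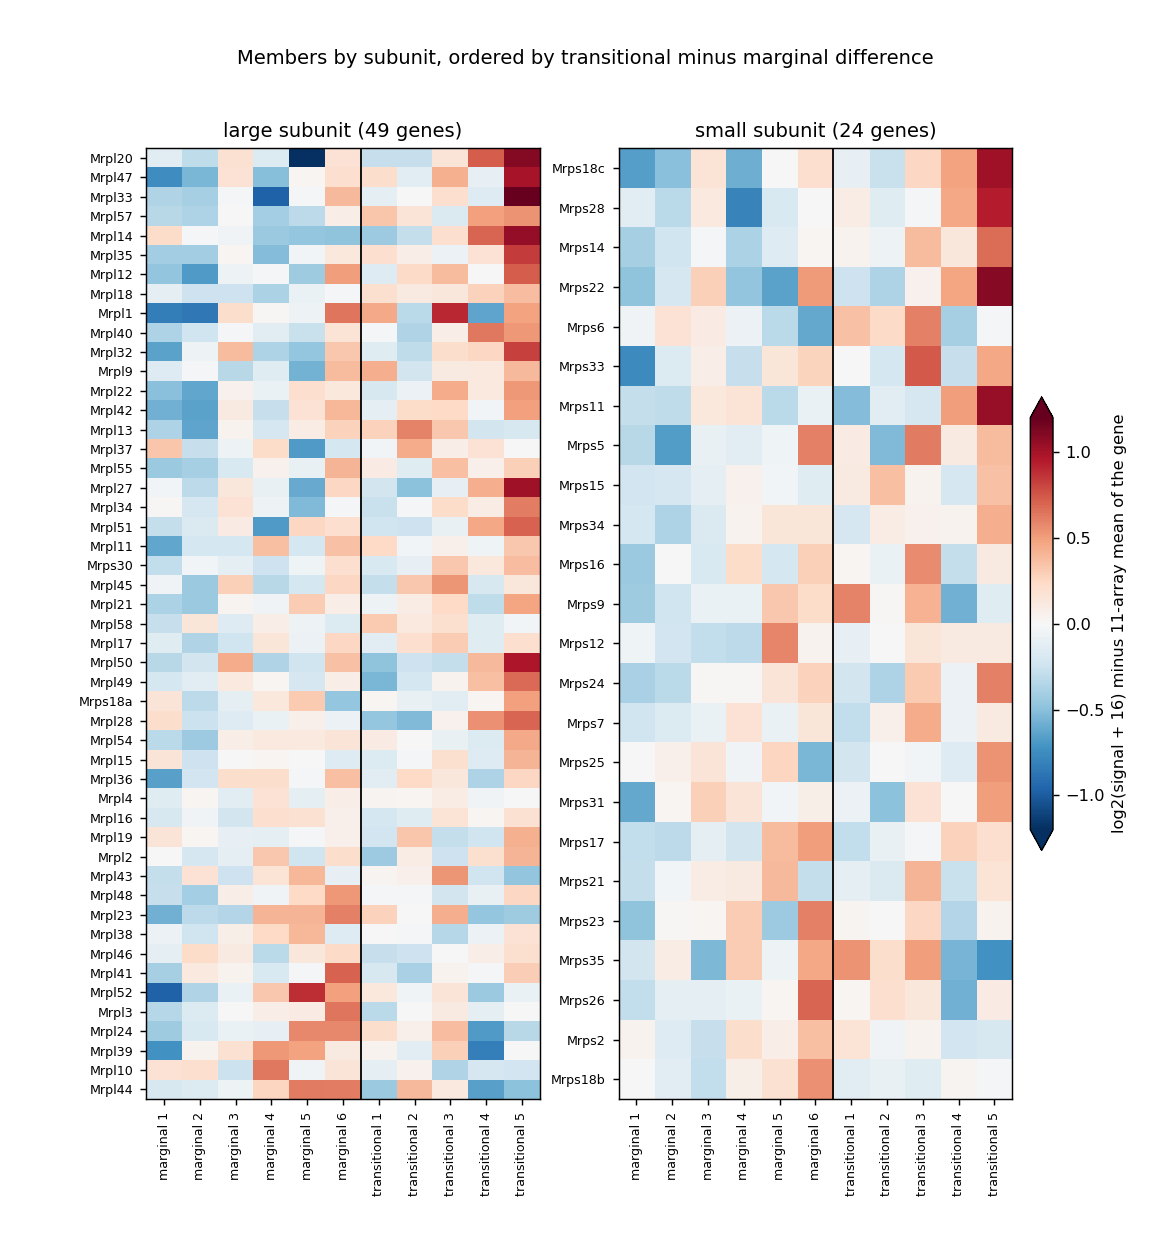
Deviation of each large subunit gene (left) and small subunit gene (right) from its mean over the 11 arrays, in log2(signal + 16), from blue (lower) to red (higher), with genes ordered by the transitional minus marginal difference. The transitional 5 column is red over most genes of both subunits and the marginal 1 and 2 columns are mostly blue.

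The 74 genes varied less than most of the array. Their median range over the 11 arrays was 1.08 on the log2 scale (2.12-fold), against 1.56 (2.95-fold) over all tested probe sets, and 31 of 74 (41.9%) stayed within 1 log2 unit, against 18.2%. The median SD within a class was 0.32 for the members and 0.48 for all tested probe sets. The members were also brighter, with a median mean signal of 1004 against 405, and brightness was not matched in this comparison. The flattest was Mrpl4, a large subunit protein chosen here after its values were seen, with 909 to 1141.5 over all 11 arrays.

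The widest ranges were those of Mrpl33, Mrpl20, Mrpl52, Mrpl1 and Mrps28. Mrpl33 encodes a small protein of the large subunit. Its signal had a lowest, median and highest of 335, 591 and 884.5 in the marginal class, and was 625.2, 669.5, 775, 603 and 1871 in transitional 1 to 5. A single array, transitional 5, stood at 5.38-fold above the lowest (marginal 4), and the other 4 transitional arrays lay inside the marginal range. Mrpl20, which binds ribosomal RNA in the large subunit, had a lowest, median and highest of 707, 1477 and 1858 in the marginal class and was 1349, 1348, 1826, 2716 and 3538 in transitional 1 to 5. Its low marginal value is that of sample 5, and its 2 high values are transitional 4 and 5. Mrpl52, a large subunit protein without a bacterial counterpart, spread the other way, within the marginal class, from 917 in sample 1 to 3357 in sample 5, and was 1973, 1761, 2018, 1326 and 1706 in transitional 1 to 5. Mrpl1 forms the stalk beside the exit site of the large subunit. It read 139 and 137 in marginal 1 and 2 and up to 415 in marginal 6, and 363, 205, 504, 163 and 371 in transitional 1 to 5. On this probe set marginal 1 and 2 and transitional 4 were the low arrays. The other tested probe set of Mrpl1, dim at 49.3 to 111.4, was lowest on marginal 2 (49.3) and marginal 4 (66.5). There marginal 1 read 85.8 and transitional 4 88.6.

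The design sorts lymphomas into severity classes, and the comparison available here is transitional against marginal. No member was called at an adjusted p of 0.05 by limma's moderated test with Benjamini-Hochberg adjustment over 13576 probe sets, nor was any other probe set (0.0% in each direction), and the smallest adjusted p of a member was 0.999. At an unadjusted p below 0.05, 4 members were higher in transitional tumours, Mrpl18, Mrpl57, Mrps14 and Mrpl35 (5.41%, against 0.95% of all tested probe sets), and 0 lower (against 2.39%). The estimate was higher in transitional tumours for 56 of 74 (75.7%, against 42.4%) and lower for 18 (against 57.6%), and the median difference was 0.125, against -0.057 over all tested probe sets. The 56 rests in part on transitional 5: without it, 47 of 74 were higher (63.5%, against 45.1%) and the median was 0.070, against -0.031. Leaving out transitional 4 and 5 gave 49 of 74 (66.2%, against 52.2%) and 0.086, against an all-probe median of 0.016. Scaling each array to a common median moved all probe sets up by over 0.1, to a median of 0.063, and gave 69 of 74 higher (93.2%, against 57.9%), so the members' median stood 0.19 above that of all probe sets there and 0.18 above it as deposited. The count of 4 became 2 without marginal 1, 2 or 4 or transitional 5, 6 without marginal 6 and 7 without transitional 2, where 1 member was also lower. Among only the animals that failed to nest, which leaves 2 marginal tumours, it was 0. In that fit 64 of 74 estimates were higher (86.5%, against 45.2%), with a median of 0.183, against -0.036. The share of all probe sets at an unadjusted p below 0.05 was not counted in these alternative fits.

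**Figure D3:**
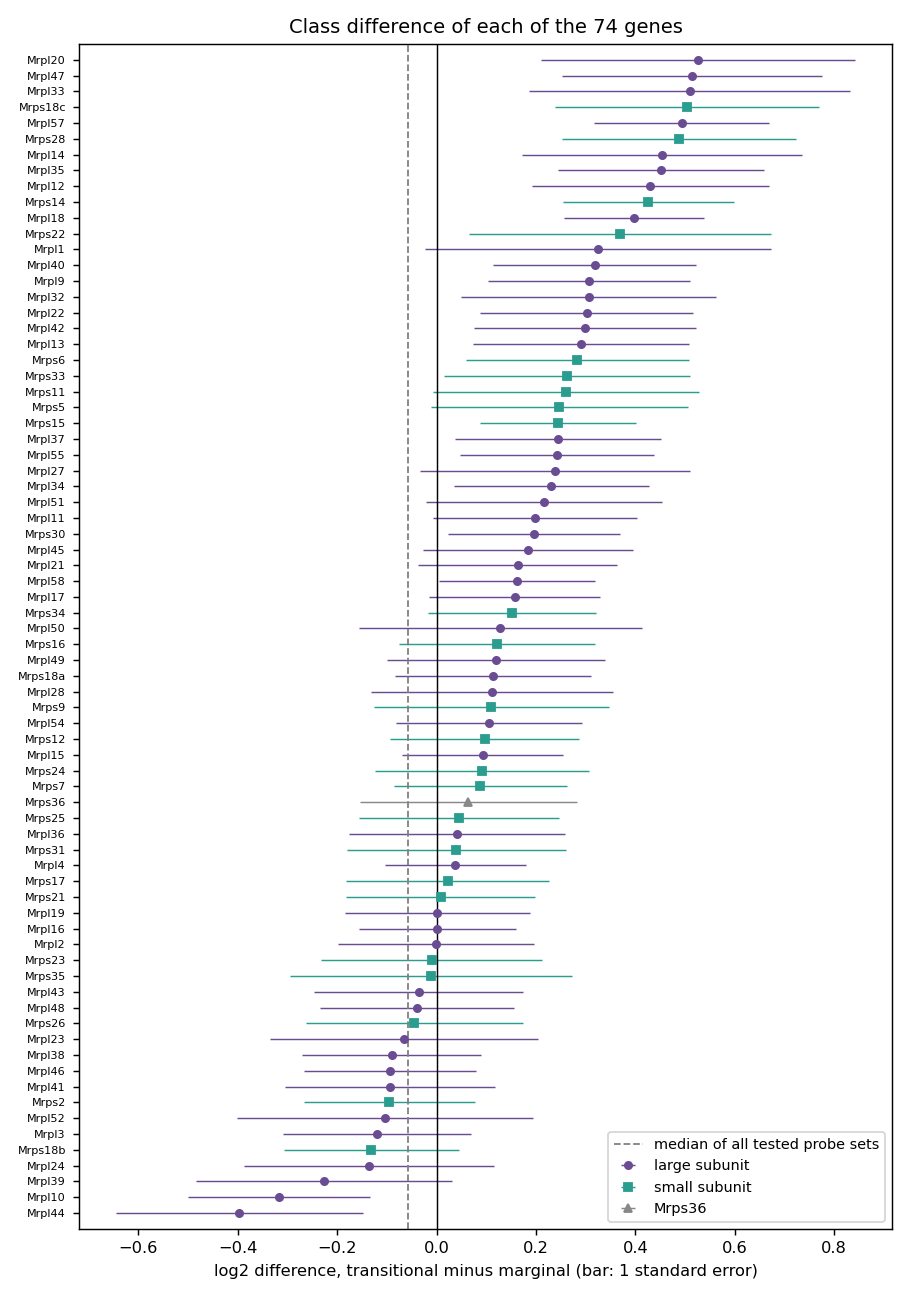
Difference between transitional (n = 5) and marginal (n = 6) means of each of the 74 genes, in log2(signal + 16), with 1 standard error. The dashed line is the median of all tested probe sets at -0.057. Most genes lie to the right of 0, from -0.397 (Mrpl44) to 0.527 (Mrpl20), and the intervals of the genes near the ends are wide.

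The genes with a bacterial counterpart and the mitochondria-specific ones are counted separately here. Of 44 members with a bacterial counterpart, 38 had a higher estimate in transitional tumours, with a median of 0.21. Of 29 mitochondria-specific members, 17 did, with a median of 0.11. Large subunit genes stood at 36 of 49 (median 0.16) and small subunit genes at 19 of 24 (0.10), against 42.4% of all tested probe sets. Whether these subgroups differ was not tested.

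Mrpl18 encodes a large subunit protein of the family that binds 5S ribosomal RNA. Its marginal signals had a lowest, median and highest of 1195, 1369 and 1540.3, and transitional 1 to 5 read 1781, 1680.3, 1711, 1884 and 2010.3. Every transitional value was above every marginal one. This was the only member whose classes did not overlap with transitional higher (1.35% of 74, against 0.103% of all tested probe sets), and 0 members separated the other way (against 0.125%). The means were 1375 ± 127 and 1813 ± 135 (SD, n = 6 and n = 5), a log2 difference of 0.40 (SE 0.14, 1.32-fold). Its unadjusted limma p was 0.0156, with an adjusted p of 0.999. As each array was left out in turn the difference stayed between 0.36 and 0.43.

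Mrpl57 encodes a small protein of the large subunit found only in mitochondria. The marginal signals had a lowest, median and highest of 2312, 2454 and 3254, and transitional 1 to 5 read 3869, 3437.5, 2719, 4335 and 4489. The classes overlapped through transitional 3, the transitional tumour with mild spleen enlargement, and through marginal 3 and 6. The means were 2657 ± 405 and 3769.9 ± 718 (SD, n = 6 and n = 5), a log2 difference of 0.49 (SE 0.18). The second tested probe set of Mrpl57, dim at 31.6 to 104.1, gave -0.003 (SE 0.29).

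Mrps14 encodes a small subunit protein of the head of the subunit. The marginal signals had a lowest, median and highest of 2061.5, 2378 and 2779, and transitional 1 to 5 read 2807, 2616, 3543, 2995 and 4339.9. Only transitional 2 lay within the marginal range. The log2 difference was 0.43 (SE 0.17), and its second tested probe set gave 0.048 (SE 0.17) on signals of 239.3 to 349.1.

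Mrpl35 encodes a large subunit protein with a bacterial counterpart. Its marginal signals had a lowest, median and highest of 867, 1085 and 1369, and transitional 1 to 5 read 1450.5, 1328, 1197, 1419 and 2262. In transitional 1, 4 and 5 the signal was above the highest marginal one. The log2 difference was 0.45 (SE 0.21).

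**Figure D4:**
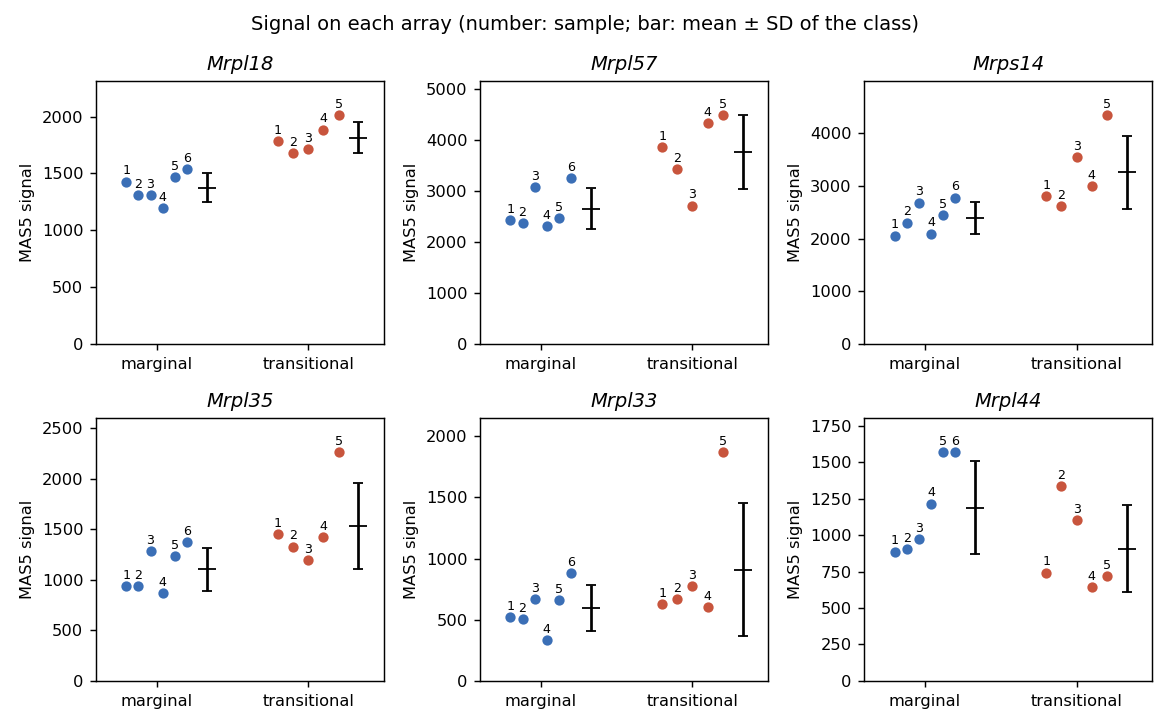
MAS5 signal of Mrpl18, Mrpl57, Mrps14, Mrpl35, Mrpl33 and Mrpl44 on each array, marginal in blue and transitional in red, with sample numbers above the points and the class mean ± SD beside them. Mrpl18 separates the classes, Mrpl33 is high on transitional 5 alone at 1871, and Mrpl44 is low on transitional 1, 4 and 5.

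Mrps28, Mrpl47, Mrps18c and Mrpl12 followed in rank. Mrps28, a small subunit protein, had a lowest, median and highest of 636, 1006 and 1216 in the marginal class and read 1198, 1014, 1101, 1558 and 2173 in transitional 1 to 5, with a log2 difference of 0.49 (SE 0.24). Mrps18c, a small subunit protein related to Mrps18a and Mrps18b, had 1263, 1712 and 2303 and read 1870.3, 1659, 2384, 2799 and 4075, with 0.50 (SE 0.265). In both, transitional 5 is the highest array and transitional 4 the next. Mrpl47 had 371, 541.5 and 731 in the marginal class and read 735, 579, 859.7, 591 and 1269, with 0.51 (SE 0.26). Mrpl12, of the stalk that recruits translation factors, had 1229, 1678 and 2811 and read 1777, 2328, 2574, 1969 and 3284, with 0.43 (SE 0.24). The classes overlapped in both, and marginal 6 was the highest marginal array. Without transitional 5 the 4 differences ran from 0.31 for Mrpl12 to 0.34 for Mrpl47.

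Of the 18 members with a lower estimate in transitional tumours, Mrpl10 and Mrpl44 had the smallest p. Mrpl10 anchors the stalk. Its marginal signals had a lowest, median and highest of 619.9, 832 and 1161, and transitional 1 to 5 read 686, 768, 574.5, 641 and 629, a log2 difference of -0.32 (SE 0.18). All 5 transitional values were below the marginal median, and 4 of them lay within the marginal range. Mrpl44, related to RNase III enzymes, had a lowest, median and highest of 887, 1095 and 1569 and read 742, 1334, 1103, 641.5 and 717, with -0.40 (SE 0.25). Transitional 1, 4 and 5 were below every marginal value, and its 2 other tested probe sets gave -0.19 and -0.265. The remaining 6 by that rank were Mrpl39, Mrps18b, Mrpl3, Mrps2, Mrpl24 and Mrpl46, with differences from -0.23 (Mrpl39) to -0.093 (Mrpl46), each under its standard error. Of these, Mrpl3, Mrps2 and Mrpl46 turned positive when arrays were scaled to a common median.

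Other probe sets of a member did not always read alike. For 26 members 36 other tested probe sets were available, and 24 of 36 had the sign of the main one between the classes. All agreed in sign for 15 of the 26 genes. Leaving out the 7 members read by probe sets of the types that can hybridise with other transcripts left 50 of 67 with a higher estimate and a median of 0.157.

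Spleen enlargement was ranked from 1 (marginal) to 5 (severe) and tested as a linear trend. No member was called by limma (0.0% of all tested probe sets in each direction), and at an unadjusted p below 0.05 Mrpl57 and Mrpl35 had a positive slope (2.7%, against 0.972%) and 0 a negative one (against 1.18%). The median slope was 0.036 per grade step, against -0.012 over all tested probe sets, and 56 of 74 were positive (75.7%, against 45.1%). It was 0.013 without marginal 1, the only array of the first grade, 0.023 without transitional 5, 0.068 without transitional 1 and 0.064 without transitional 2. By grade, the median deviation of the 74 genes was -0.29 in the 1 marginal-grade tumour, -0.040 in the 4 mild, 0.079 in the 2 moderate, 0.14 in the 2 moderately severe and -0.030 in the 2 severe ones. The median of the 2 severe tumours was therefore below those of the moderate and moderately severe grades, but single arrays of these grades overlapped. The severe pair is transitional 1 at -0.099 and transitional 2 at -0.027. The moderate pair is marginal 5 at -0.026 and marginal 6 at 0.20, and the moderately severe pair is transitional 4 at -0.037 and transitional 5 at 0.38.

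Mrpl57 had the smallest p of the trend. It read 2432 in the marginal-grade tumour, 2382, 3086, 2312 and 2719 in the mild ones, 2475 and 3254 in the moderate ones, 4335 and 4489 in the moderately severe ones and 3869 and 3437.5 in the severe ones. All 4 tumours of the 2 highest grades, which are all transitional, exceeded all 7 others. Mrpl57 was picked by its trend p, and how many other probe sets separate in this way was not counted. The mild transitional tumour lay with the mild marginal ones, but this single array cannot tell grade from class. The slope was 0.20 per step (SE 0.067). Its unadjusted limma p was 0.0104, with an adjusted p of 1. Mrpl35 had a slope of 0.19 (SE 0.079), Mrpl18 0.12 (SE 0.062), Mrpl13 0.14 (SE 0.081) and Mrps15 0.098 (SE 0.061). Mrpl13, a large subunit protein, read from 1413 to 2671.5 in the marginal class and 2677.5, 3343, 2765, 1889.5 and 1930.6 in transitional 1 to 5. On this probe set it was highest in the 2 severe tumours and the mild transitional one and not in the moderately severe pair. Its other tested probe sets were both highest on marginal 6 (1232.7 and 447.3). Transitional 5 was above the severe tumours on the brighter of them (1076.8 against 944.9 and 816.7) and below them on the dimmer (276.7 against 339.8 and 322.1). The negative slopes with the smallest p, of Mrpl10 (-0.063), Mrpl44 (-0.057), Mrps21 (-0.037), Mrpl46 (-0.030) and Mrpl28 (-0.040), were all smaller in size than their standard errors.

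With class in the same model, the slope was positive for 42 of 74 members (56.8%, against 53.4%), with a median of 0.016 against 0.012. No member was called and 0 passed an unadjusted p of 0.05 in either direction (against 1.27% and 0.928%). Without transitional 3, the only transitional tumour with mild enlargement, 1145 of all tested probe sets were called (642 with a positive and 503 with a negative slope), and among them 3 members with a positive slope, Mrpl23, Mrpl24 and Mrpl52. Their share of the 74 (4.05%) is near the 4.73% of all tested probe sets called with a positive slope in that fit. The remaining marginal and transitional arrays share no spleen grade.

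Other nuclear genes for the same machinery were read by list. The 4 tested ribosomal proteins of the mitochondrion that have no Mrp symbol, Dap3, Ptcd3, Chchd1 and Gadd45gip1, all had a higher estimate in transitional tumours, with a median of 0.33. So did 20 of 21 import genes (median 0.198) and 65 of 76 nuclear respiratory chain and ATP synthase genes (0.198). Over all tested probe sets 42.4% were higher, with a median of -0.057. In the list of translation factors, which also holds Slirp, Lrpprc and Oxa1l, the estimate was higher for 2 of 9 genes (median -0.172), Slirp and Gfm1. It was higher for 8 of 19 assembly and ribosomal RNA modification genes (-0.047) and 3 of 11 genes of mitochondrial DNA maintenance and transcription (-0.146). The count was 2 of 8 for regulators (-0.102), 6 of 10 for aminoacyl-tRNA synthetases (0.007) and 18 of 45 for cytosolic ribosomal protein genes (-0.036). The shares of the assembly and cytosolic lists (42.1% and 40%) were near that of all probe sets and that of the synthetases (60%) above it, and differences between lists were not tested. No gene of these lists was called by limma. The lists follow the array pattern of the members unequally. On transitional 5 the median deviation was 0.38 for the members, 0.60 for the 4 without an Mrp symbol, 0.35 for import and 0.37 for the respiratory chain, but 0.094 for translation factors, -0.088 for assembly, -0.20 for mitochondrial DNA and -0.33 for cytosolic ribosomal proteins. On marginal 6 it was 0.67 for mitochondrial DNA maintenance and 0.20 for the members.

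**Figure D5:**
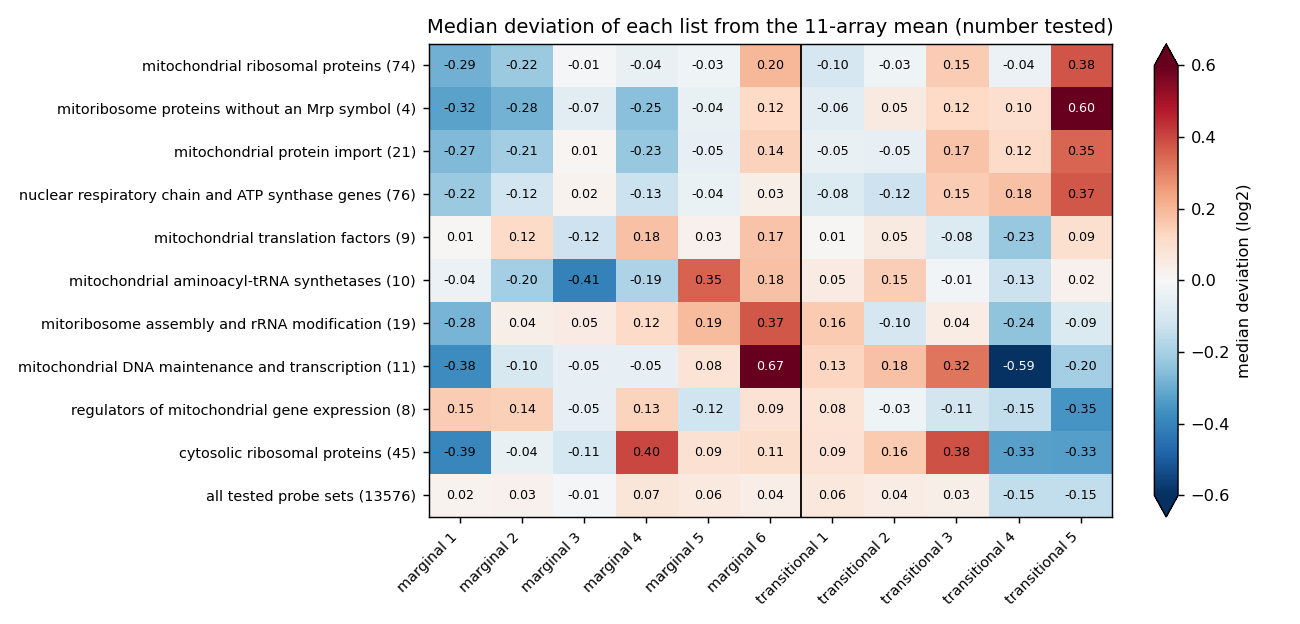
Median deviation from the 11-array mean, in log2(signal + 16), of the members and of 9 lists of related genes on each array, with the number of tested genes in brackets and all tested probe sets in the last row. Import and respiratory chain genes follow the members on transitional 5 (0.35 and 0.37 beside 0.38), while cytosolic ribosomal proteins are at -0.33 there.

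Single genes of these lists were read beside the members. Slirp, which stabilises mitochondrial messenger RNA with Lrpprc, had a lowest, median and highest of 461, 848 and 1687 in the marginal class and read 1151, 1269, 1912, 1235 and 2694 in transitional 1 to 5, a log2 difference of 0.84 (SE 0.32). Only marginal 6 overlapped the transitional values. Timm8b, an intermembrane-space chaperone of import, had 435, 628 and 1161 and read 732, 749, 1469.5, 1147 and 1839, with 0.73 (SE 0.32). Mrm2, a methyltransferase of the large ribosomal RNA, was dim: it read 104 to 129 in the marginal class and 80.8, 43.5, 47.3, 99.9 and 95.1 in transitional 1 to 5, below every marginal value (17 of all tested probe sets, 0.125%, separated that way), with -0.62 (SE 0.24). Polrmt, the mitochondrial RNA polymerase, had 324, 407 and 664 and read 388, 431.5, 244, 166 and 211, with -0.665 (SE 0.28). Its lowest 2 values were transitional 4 and 5, where the members' median deviation was -0.037 and 0.38. None of these 4 reached an adjusted p below 0.999.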

How the data were processed

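RNA of 6 marginal and 5 transitional lymphomas was hybridised to 1 array each. Values are the deposited linear intensities, for which the submitters' processing notes name MAS5 without a version. Labelling started from a poly-dT primer, per the labels' protocols. All 11 columns were matched to samples (0 without one).

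The 64 control probe sets of 22690 were left out, 16 was added before log2, and the upper 60% by mean (13576) were tested with limma 3.58.1 in R 4.3.3 (eBayes with trend, two-sided, Benjamini-Hochberg over all tested, threshold 0.05). The fit was checked on simulated data. Of 22626 probe sets 20380 had 1 gene symbol in GEO's platform annotation, 691 several and 1555 none, matched to RefSeq GRCm38.p6.

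Named by rule were the members with the 8 smallest p per direction between classes and 5 in the grade trend, those whose classes do not overlap, the 5 widest ranges, and the 2 smallest p of each list, of which a choice is printed. The members, lists and rules were chosen with earlier results of these data known. Nothing in the labels says that samples are separate animals, so p-values measure the spread between samples, which may be technical, and the number of arrays limits precision. No batch record was used. Alternatives covered the offset (1 and 64), quantile and median scaling, the filter (none and 40%), eBayes without trend, averaging a gene's probe sets, leaving out each array or transitional 4 and 5 together, the replicate block, and only animals that failed to nest.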

Additional observations from a re-analysis of the deposited data

Results flagged for a closer look

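A single array stood far from the others of its class in 3 of 86 groups checked (genes by class). About 1 in 20 is expected by chance for genes picked without regard to their spread. The genes checked were named by a small p or a wide range, and both depend on the spread. The share found can therefore not be set against that rate. Mrpl33 and Mrpl20 were named for their wide range. The gap to the nearest other value, divided by the whole range of the class, was set against Dixon's 95% critical value. Mrpl33 had a log2 signal of 10.88 on transitional 5, while the other 4 transitional arrays lay between 9.27 and 9.63 (ratio 0.78 against 0.71). Mrpl20 had 9.5 on marginal 5, while the other marginal arrays lay between 10.38 and 10.87 (0.643 against 0.625). Kars, a lysyl-tRNA synthetase of cytosol and mitochondria, had 11 on transitional 1, while the others lay between 10.71 and 10.8 (0.713 against 0.71).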

How the results depend on the processing

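No class difference or grade slope without class of a gene named here passed an adjusted p of 0.05 under any of the 22 alternatives, and 39 of the 52 such gene results never changed sign; the cause of the changes below was not tested. The count of members called stayed at 0 under every alternative between classes and in the grade trend alone. With class in the grade trend it ran from 0 to 3 as arrays were left out, while that of all probe sets ran from 0 to 1145. Under median scaling the class difference became 0.004 for Mrpl3, 0.026 for Mrps2, 0.031 for Mrpl46 and 0.020 for Mrpl52, and the grade slope of Mrpl46 became 0.002. When the probe sets of a gene were averaged, Dhx30 became 0.189 between classes, and the slopes of Mrpl44 and Mrpl28 became 0.003 and 0.044. Without transitional 4 and 5, Mrps2 became 0.012, Mrpl24 0.150, Mrpl28 -0.265, Mrpl52 0.034 and Ppargc1b 0.059 between classes, and the slope of Mrpl44 became 0.024. In animals that failed to nest, Mrps18b became 0.144, Mrpl3 0.012, Mrps2 0.164, Mrpl24 0.056, Mrps21 -0.023 and Mrpl52 0.167. As each array was left out, the class difference ran from -0.247 to 0.015 for Mrpl24, -0.048 to 0.259 for Mrpl28, -0.307 to 0.064 for Mrpl52 and -0.093 to 0.087 for Mrps21, and the grade slope from -0.088 to 0.033 for Mrpl28 and -0.058 to 0.005 for Mrpl46. The members' median class difference ran from 0.070 to 0.187 their median grade slope from 0.013 to 0.068, and that slope with class from -0.032 to 0.075. With the replicate number as a block the class median was 0.175, 61 of 74 members were higher (82.4%, against 41.9% of all tested probe sets) and 6 passed an unadjusted p of 0.05. Mrps21 became -0.049 in that fit. Marginal 6 has no same-numbered transitional sample, and leaving marginal 6 out gave the same median and counts. The block is therefore not a separate alternative to that omission. Same-numbered samples correlated at -0.452 to -0.088 in their deviations from the class means. Differently numbered samples were not compared, so whether the numbers pair the samples is not settled.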
